A study of Mus musculus with 15 samples.

Results

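Basal HSF1 regions that were still called after 4 h of cold are sites in mouse brown adipose tissue (BAT) where the heat shock factor had a peak in both room temperature libraries and in at least 1 of the 4 h libraries. Peaks of those 4 lists sharing 1 bp or more were joined, which gave 1427 regions. Of these, 802 held a peak of both room temperature lists, and 280 of the 802 (34.9%) also held a 4 h peak. These 280 are called the persistent regions here, and the other 522 room temperature regions are called the non-persistent ones. Merging all 10 lists of the series gave 18176 regions. The persistent regions were chosen by the presence of a called peak in the room temperature and 4 h lists, so strength and width in those 4 lists are descriptions, while the 6 lists at 40 min of cold were not used in it.

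HSF1 was precipitated from BAT in 10 libraries, 2 for each of 5 groups, all with the same antibody (Cell Signaling 4356). The wild type samples came from room temperature (RT), from 40 min of cold (the first 40 min pair) and from 4 h of cold. Mice labelled TXNIP KO were sampled after 40 min of cold, and they are set against a second pair of wild type libraries from the same time. The strain, age and sex of the mice, the cell type in which Txnip was deleted and the exact temperatures are not given in the labels. The labels do not name separate animals for the libraries of a group, and the spread between these may be technical. Peak lists carry no RNA, so neither the deletion of Txnip nor the cell types in the tissue can be checked with them.

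HSF1 is the main activator of chaperone genes when proteins misfold. On activation it assembles into trimers and binds heat shock elements, which are inverted repeats of short units of the form GAA or TTC, at chaperone genes and elsewhere. BAT burns fuel to make heat in the cold, a program driven by adrenergic signalling and by factors such as the coactivator PPARGC1A and the nuclear receptor PPARG. TXNIP is an arrestin-family protein that binds thioredoxin and restrains glucose uptake.

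The sequences under 7 of the persistent regions show what such sites look like. RefSeq promoter windows (GRCm38.p6, from 250 bases before to 50 after a transcript start) were searched on both strands for 3 units in a row, TTC, 2 bases, GAA, 2 bases, TTC, or the inverse order GAA, TTC, GAA, with at most 1 mismatch in the 9 unit bases. Each stretch is given 5′ to 3′ on the strand of its gene, and capitals mark the element. The first 4 are at genes of protein folding and stress, and the other 3 at genes outside those lists. They lie at chr1:55088029-55088101 (plus strand, Hspe1), chr6:128438770-128438842 (minus, Fkbp4), chr5:135887772-135887844 (plus, Hspb1), chr5:139484650-139484722 (minus, Zfand2a), chr11:116843299-116843371 (plus, Mettl23), chr8:71537596-71537668 (minus, Bst2) and chr7:44554061-44554133 (minus, Nr1h2).
Hspe1: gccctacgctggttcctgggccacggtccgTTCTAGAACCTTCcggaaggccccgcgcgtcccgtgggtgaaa
Fkbp4: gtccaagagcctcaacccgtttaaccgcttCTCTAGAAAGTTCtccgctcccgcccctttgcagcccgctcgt
Hspb1: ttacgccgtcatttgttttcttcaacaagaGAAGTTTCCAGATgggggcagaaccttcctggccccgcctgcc
Zfand2a: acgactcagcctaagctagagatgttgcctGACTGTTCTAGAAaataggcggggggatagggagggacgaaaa
Mettl23: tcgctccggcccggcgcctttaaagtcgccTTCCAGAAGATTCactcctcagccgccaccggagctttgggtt
Bst2: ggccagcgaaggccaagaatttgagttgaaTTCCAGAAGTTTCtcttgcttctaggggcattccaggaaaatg
Nr1h2: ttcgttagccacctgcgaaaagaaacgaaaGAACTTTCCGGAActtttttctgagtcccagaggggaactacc

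In these 7 stretches the centre of the element lay 4 to 14 bp from the peak summit, closer than in many others, since the median over the persistent regions with an element was 19.5 bp and 22 of 24 had one within 100 bp. The Hspe1, Mettl23, Bst2 and Nr1h2 elements matched without a mismatch, and those of Fkbp4, Hspb1 and Zfand2a had 1. Over all persistent regions with a summit inside a promoter window, 24 of 33 windows (72.7%) held an element with at most 1 mismatch and 9 (27.3%) held an exact one. Among non-persistent regions, 35 of 68 windows (51.5%) held one with at most 1 mismatch and 8 (11.8%) an exact one. Of all 32851 windows, 2372 (7.22%) and 198 (0.603%) did. The share was alike for persistent regions called in both 4 h lists (13 of 18 windows) and in 1 of them (11 of 15). Persistent regions were also stronger at room temperature, with a median percentile of 96.4 among the 33 and 60.8 among the 68, so element content and strength moved together here. The Hspa1a and Hspa1b genes, which encode stress-induced HSP70 proteins, are near-identical copies, and the stretches around their elements were the same letter for letter over 73 bases, so how reads were split between these regions is uncertain.

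Persistence at 4 h rested mostly on 1 library. The 4 h lists held 123 and 351 peaks on chromosomes 1 to 19, X and Y, against 919 and 1269 at room temperature. Replicate 1 called 100 persistent regions and replicate 2 called 278. Both called 98 (12.2% of the room temperature regions), replicate 1 alone called 2 and replicate 2 alone called 180. Read depth is unknown for each library, so a region not called at 4 h was not detected in that list, which does not show that HSF1 had left it. Persistent regions took up most of what was called at 4 h, with 81.3% and 79.5% of the peaks of the 4 h lists, against 30.6% and 22.1% of the peaks at room temperature. Outside them, 85 regions were called at 4 h, of which 10 held a peak of both replicates and 41 held a peak of 1 room temperature list.

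The chaperone gene Hspe1 had the strongest persistent region. Its fold enrichment, the authors' ratio of signal at the summit to local background, was 194 and 193 in the RT libraries, 400.4 and 328 in the first 40 min libraries, 53.6 and 117 at 4 h, 1148 and 1109 in the knockout and 1296 and 1209.9 in the second wild type pair. It ranked first by −log10 p in 8 lists and second in both 4 h lists. The region lies at chr1:55087278-55088819 (GRCm38.p6), between the divergently placed genes for the mitochondrial chaperonins HSP10 (Hspe1) and HSP60 (Hspd1), with its summit 88 bp from a gene end. Folds of different libraries depend on background and depth as well as binding, and the sources used here do not give the input used for each. They are therefore set side by side only as descriptions, and the order of regions within a list is the measure compared.

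**Figure D1:**
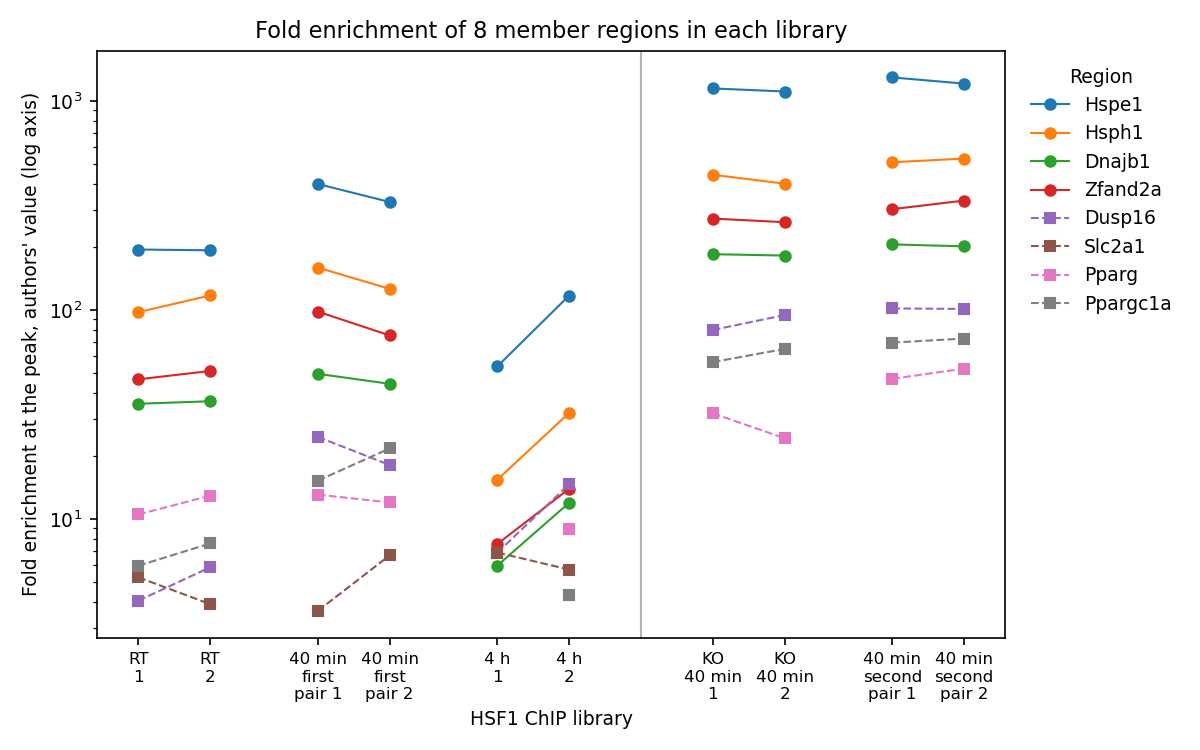
Fold enrichment on a log axis, as the authors gave it, for 8 persistent regions in each of the 10 libraries, with lines joining the libraries of a group. Circles with solid lines are regions near a gene end, squares with dashed lines are regions farther away, and a missing point means that no peak was called. Hspe1 is the highest in each library, and Slc2a1 has no point in the knockout or the second 40 min pair.

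Genes of protein folding and degradation held many of the persistent regions that lay at genes. A region was near a gene end when its summit lay within 1000 bp of a start or an end of a protein-coding gene, and 98 genes had a persistent region there, 0.448% of 21887 genes. Of the 258 genes with any room temperature region near an end, these 98 were 38%. Among 8 lists of chaperones, co-chaperones and protein degradation, 35 of 46 such genes (76.1%) were persistent and 27 were called in both 4 h lists, while of the remaining 212 genes 63 (29.7%) were persistent. The lists were drawn up with earlier results of these data known, so their share is a description. It was not matched for strength at room temperature, and 69.2% of the 201 strongest room temperature regions were persistent. Among near-end regions called in both RT and both 4 h lists, median RT folds were 66.5 and 69.3 at these listed genes. At other genes they were 30.4 and 32.0.

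The HSP70 and HSP110 group, which binds unfolded chains, with its partners, had persistent regions at 9 of 11 genes with a room temperature region. Hspa8, the constitutive HSP70, had folds of 112 and 97.4 at RT, 162 and 154 in the first pair, 26.4 and 55.0 at 4 h, 503 and 539 in the knockout and 651 and 625 in the second wild type pair. Hsph1, the HSP110 nucleotide exchange factor, had 97.5 and 117 at RT, 159 and 126 at 40 min, 15.4 and 32.1 at 4 h, 443 and 402 in the knockout and 509 and 530 in the second pair. Both had higher folds in each 40 min library than in either RT library, and lower ones in both 4 h libraries. St13, an HSP70-interacting co-chaperone, had folds of 44.6 and 78.9 at 4 h, against 126 and 118 at RT. Bag3, which links HSP70 to small heat shock proteins and autophagy, was called at 4 h by replicate 2 alone, with a fold of 8.21, against 16.0 and 27.7 at RT. The genes of this group that were not persistent were Hspa4 and Hspbp1.

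The HSP90 group, which matures kinases and steroid receptors, had 7 of 8 genes persistent. Hsp90ab1, the constitutive cytosolic HSP90, had folds of 121 and 112 at RT, 224 and 208 in the first pair, 22.3 and 43.0 at 4 h, 625 and 591 in the knockout and 763 and 771 in the second pair. Hsp90aa1, the inducible form, had folds of 20.4 and 40.0 at 4 h, against 121 and 118 at RT. Of the HSP90 co-chaperones, Fkbp4, Chordc1 and Ahsa2 were called in both 4 h lists and Ahsa1 and Ptges3 in 1. Ppid was not persistent.

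The HSP40 genes, whose J-domain proteins stimulate HSP70, were persistent at Dnaja1, Dnaja4 and Dnajb1 and not at Dnajb2 or Dnajb4. Dnajb1, the stress-induced member, had folds of 5.97 and 11.9 at 4 h, against 35.5 and 36.5 at RT. Of the small heat shock proteins Hspb1 was persistent, with folds of 12.0 and 17.9 at 4 h against 66.3 and 63.3 at RT, and Hspb8 was not. Of the mitochondrial chaperones Hspe1 and Hspd1 shared a persistent region, and Hspa9, the mitochondrial HSP70, was not persistent. The cytosolic chaperonin TRiC, which folds actin and tubulin, had persistent regions at 5 of 8 genes (Cct3, Cct4, Cct7, Cct8 and Tcp1), while Cct2, Cct5 and Cct6a were not persistent. The Cct7 end is shared with that of Pradc1, so that region cannot be given to either gene.

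Ubiquitin genes were persistent throughout. All 5 degradation genes with a room temperature region, among them Ubb, Ubqln1, Uspl1 and Zfand2a, were called in both 4 h lists. Zfand2a, which encodes an arsenite-inducible protein associated with the proteasome, had folds of 46.5 and 51.0 at RT, 98.1 and 75.4 in the first pair, 7.58 and 13.9 at 4 h, 273 and 263 in the knockout and 303 and 333 in the second pair. Of the endoplasmic reticulum chaperones Serpinh1, Hsp90b1 and Pdia3 were persistent, and only Serpinh1, the collagen chaperone, was called in both 4 h lists. The non-persistent gene there was Canx.

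Chaperone genes held 4 of the 5 widest regions. These were at Hsp90ab1 (chr17:45572098-45574678, 2581 bp), Hspa8 (2345 bp), Fkbp4 (1942 bp) and Dnaja1 (1854 bp), all called in all 10 lists. Dnaja1, an HSP70 partner, had folds of 123 and 102 at RT, 192 and 178 in the first pair, 23.4 and 35.3 at 4 h, 561 and 542 in the knockout and 699 and 670 in the second pair. Its 4 h folds were below both RT folds and its 40 min folds above them, as at Hspa8.

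Of the 83 persistent regions near gene ends, 33 were at a listed gene and 50 at genes outside the lists. The genes described next were picked after their values were seen. P4ha1, a collagen prolyl hydroxylase subunit gene, had folds of 36.0 and 44.2 at RT, 90.6 and 81.3 in the first pair, 5.45 and 14.2 at 4 h, 299.8 and 266 in the knockout and 319.9 and 315 in the second pair. A region between Hnrnpa2b1, which encodes an RNA-binding protein of splicing, and Cbx3 had folds of 8.50 and 17.5 at 4 h, against 26.4 and 27.5 at RT. Plin3, which encodes a lipid droplet coat protein, was 1 of the 2 near-end regions called in both 4 h lists whose 4 h and RT folds overlapped, with 10.3 and 22.5 at 4 h, against 18.8 and 17.6 at RT. The printed Mettl23 element lies at an end shared with Jmjd6, and that region had folds of 6.66 and 13.2 at 4 h, against 31.2 in both RT libraries. Bst2, an antiviral membrane protein gene, and Nr1h2, the gene of the oxysterol receptor LXR beta, were called at 4 h by replicate 2 alone, with 4 h folds of 5.71 and 8.93.

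The listed thermogenic and fat cell genes had no persistent region at their ends. None of the 20 brown adipocyte genes and none of the 22 general adipocyte genes on the lists had a room temperature region near an end, nor did the listed markers of muscle, endothelium and leukocytes. Over all 21887 genes, 258 had a room temperature region near an end and 98 (0.448%) a persistent one. None in lists this short is close to that share. The remaining lists had 4 genes with a room temperature region near an end, and none was persistent, beside 38% of all 258 such genes. The 4 genes were Kctd18 on the list of HSF genes and regulators, Arrdc4, an arrestin related to TXNIP, and the immediate early genes Jun and Zfp36.

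Persistent regions away from gene ends did include fat and signalling genes as their nearest gene, 12 of them on the lists. A region inside Ppargc1a, the coactivator of the thermogenic program, had its summit at chr5:52062554, 53299 bp from the nearest gene end. Its folds were 5.96 and 7.61 at RT, 15.2 and 21.7 in the first pair, 4.30 in 4 h replicate 2, 56.2 and 65.0 in the knockout and 69.7 and 72.9 in the second pair. It was among the 5 persistent regions with the lowest −log10 q at 4 h, and 4 h replicate 1 did not call it. A region 10998 bp from an end of Pparg had folds of 10.5 and 12.9 at RT, 13.1 and 12.0 in the first pair, 8.93 in 4 h replicate 2, 31.9 and 24.3 in the knockout and 46.8 and 52.3 in the second pair. Both rest on a single 4 h library. Other persistent regions lay inside Ebf2, which encodes a factor of brown fat identity, inside Insr, the insulin receptor gene, inside Pfkfb3, a glycolysis regulator, and 91324 bp from Cebpb, an early adipogenic factor. The nearest gene need not be the one a region acts on.

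In location the persistent regions resembled the other room temperature regions as a whole. Their summits were near a gene end in 83 of 280 cases (29.6%, Wilson 95% interval 24.6 to 35.2), against 136 of 522 non-persistent regions (26.1%) and 27.3% of all room temperature regions. Inside a gene and farther from its ends lay 103 persistent (36.8%) and 213 non-persistent regions (40.8%). Between genes lay 66 persistent regions (23.6%) within 50 kb of a gene end and 28 (10.0%) beyond that, against 115 (22.0%) and 58 (11.1%) of the non-persistent ones. The median distance to a gene end was 7280.5 bp for persistent and 9572.5 bp for non-persistent regions. Where the promoter table listed a start of the gene concerned, 60 of 64 near-end persistent regions lay within 1000 bp of that start, so ends were mostly starts.

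Some persistent regions lay close together. Within 20 kb of each other were 9 neighbouring pairs, among them Hspa1b and Hspa1a (12902 bp apart), a pair at P4ha1 (8161 bp) and 3 regions near Agfg2. Neighbours can share a wide peak at 40 min, as the pair nearest to Btg1 (941 bp apart) did in the knockout and the second wild type pair. The 5 regions farthest from a gene end were nearest to Lrrc4c (1035199 bp), Zfp608 (475303 bp), Cd83 (433075 bp), Alkbh8 (328373 bp) and Med13l (293365 bp). Of these the Med13l region had the highest RT folds, with 10.7 and 13.3 at RT, 38.4 and 27.8 in the first pair, 6.84 in 4 h replicate 2, 117 and 93.6 in the knockout and 139 and 137 in the second pair. The other 4 had RT folds of 2.05 to 8.10. Chromosome 5 held the most persistent (28) and also the most non-persistent regions (43).

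Location differed with strength and with the number of 4 h lists. Of the 98 persistent regions called in both 4 h lists, 47 (48.0%) were near a gene end, while of the 182 called in 1 list 36 (19.8%) were. With the 802 regions split by mean percentile at room temperature into 4 strength classes of 200 or 201, 139 of 201 (69.2%) of the strongest class were persistent, then 63 of 200 (31.5%), 52 of 200 (26.0%) and 26 of 201 (12.9%) of the weakest. In the strongest class 48.9% of persistent and 35.5% of non-persistent regions were near a gene end. In the 3 weaker classes the order was the other way round, with 12.7%, 7.69% and 11.5% of persistent regions, against 22.6%, 24.3% and 26.9% of non-persistent ones. Persistent regions near gene ends were thus mostly the strongest basal sites, and the weaker persistent regions were mostly distal.

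**Figure D2:**
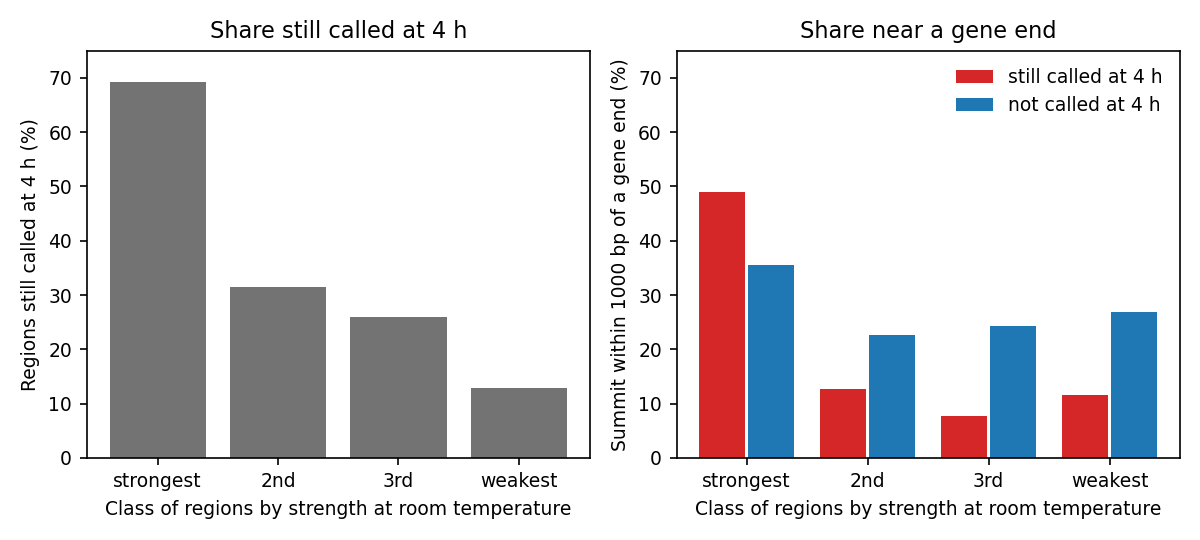
The 802 room temperature regions in 4 classes of strength, from strongest to weakest. The left bars give the percent still called at 4 h, and the right bars the percent with a summit within 1000 bp of a gene end, for regions still called (left bar of each pair) and not called at 4 h. The share still called falls along the classes, and the order of the right bars is turned round below the strongest class.

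The boundary of the choice was a matter of list membership. Just inside it, the 5 persistent regions with the lowest −log10 q at 4 h included those nearest to Slc28a3, Max, Ppargc1a and Frmd8, with 4 h folds of 3.93 to 4.64, all in replicate 2. Just outside it, the strongest room temperature regions without a 4 h peak were nearest to Kctd18, Ssh1, Cecr2, P4ha1 and Swt1. Kctd18 had folds of 37.2 and 46.5 at RT, above those of many persistent regions. P4ha1 was the nearest gene on both sides of the boundary, of 3 persistent regions and of this non-persistent one.

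Among the 98 regions called in all 4 lists, the fold at 4 h was a smaller part of the fold at RT at gene ends than at distal sites. In 66 of the 98 (67.3%) both 4 h folds lay below both RT folds, and in 6 (6.12%) both lay above. Near gene ends 45 of 47 lay below and 0 above, with a median 4 h fold of 0.285 times that at RT. Away from gene ends 21 of 51 lay below and 6 above, with a median of 0.853 times. On the log2 scale these median ratios were −1.81 near ends and −0.23 away, without 4 h replicate 2 they were −2.38 and −0.64, and without 4 h replicate 1 they were −1.24 and −0.0046. Without RT replicate 1 the value away from ends was −0.52. These 4 lists chose the regions, so the counts carry no test. The near-end regions at the listed folding and degradation genes (25 of 25 below, median 0.257 times) and at other genes (20 of 22 below, 0.312 times) had similar values.

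Strength at room temperature was not the same in both sets. The median folds were 42.0 and 43.0 at RT near gene ends and 9.93 and 12.5 at RT away from them, while at 4 h they were 7.58 and 17.1 near ends and 6.89 and 10.9 away. Regions too weak at 4 h to be called are absent from the 98. Of the persistent regions called at 4 h, 95% had folds above 4.51 in replicate 1 (100 called) and 4.89 in replicate 2 (278 called). Among regions of the strongest class the median ratio was 0.279 for 44 regions near ends and 0.520 for 26 away from them. Among regions with a mean RT fold of 10 to 50 it was 0.301 for 28 near ends and 0.652 for 27 away, and the regions near ends still had the higher median RT folds, 32.7 and 33.5 against 13.3 and 16.8 away from them. Location and strength were therefore not separated fully.

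**Figure D3:**
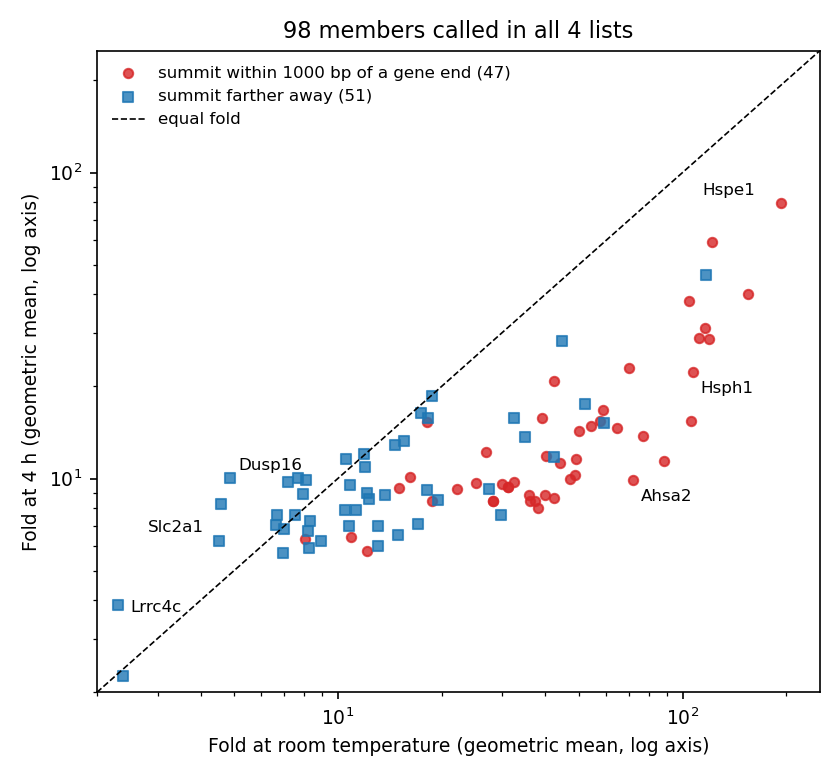
Fold at 4 h against fold at room temperature for the 98 persistent regions called in all 4 lists, each a geometric mean of 2 libraries on log axes. Circles are the 47 regions within 1000 bp of a gene end, squares the 51 farther away, and the dashed line marks equal fold. The distal regions nearest to Gm2244 and Esp38 have folds too low for the axes and are not drawn. Circles lie below the line, while squares reach above it.

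By fold, Dusp16 had the greatest rise in place among the 98 regions. This gene encodes a phosphatase that inactivates stress-activated MAP kinases, and its region lies inside the gene with the summit at chr6:134802966, 4097 bp from an end. Its folds were 6.89 and 14.6 at 4 h, against 4.05 and 5.86 at RT, and it moved up 42.25 places among the 98 by fold. Regions enter the 98 only if called at 4 h, so one with RT folds this low could hardly be seen to fall. At 40 min the Dusp16 region had folds of 24.6 and 18.1 in the first pair, 80.1 and 94.4 in the knockout and 101.5 and 101 in the second pair. A region 3125 bp from Dusp6, a phosphatase gene of the ERK pathway, moved up 38.75 places. Dusp6 had folds of 12.4 and 27.8 at 4 h, against 15.2 and 23.3 at RT, so only its place rose and its folds overlapped. Dusp6 was named after its values were seen. By −log10 p the low-fold region nearest to Esp38 rose more than Dusp16, from places 92 and 97 at RT to 36 and 12 at 4 h. By that measure Dusp16 went from places 97 and 95.5 at RT to 59.5 and 44.5 at 4 h.

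The 6 regions with both 4 h folds above both RT folds were nearest to Dusp16, Slc2a1, Mertk, Rilp, Lrrc4c and Esp38. Where RT folds were near the lowest folds called at 4 h, as at Dusp16, Slc2a1 and Rilp, a fall could hardly be seen. How far the choice of regions bears on these rises was not tested. Rilp encodes an effector of the lysosomal GTPase RAB7, and its region had folds of 5.97 and 11.4 at 4 h, against 3.58 and 5.86 at RT. The region inside Slc2a1, which encodes the glucose transporter GLUT1, had folds of 6.89 and 5.71 at 4 h, against 5.24 and 3.91 at RT, and 3.62 and 6.68 in the first 40 min pair. It was called in neither knockout library and in neither library of the second wild type pair, although those lists are the longest of the series, and it was the only persistent region absent from both pairs. By place in the order of fold, Ahsa2 fell by 36.75 and Cct4 fell by 36.5. Naa16, P4ha1, Shf and Dnajb1 were the others of the 6 regions that moved down most. Of these 6, Shf lay 12348 bp from a gene end and the other 5 were near one. Ahsa2, an HSP90 co-chaperone gene, had folds of 7.58 and 12.9 at 4 h, against 66.5 and 77.3 at RT.

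A few persistent regions had low folds. In 5 of them the fold was under 3 in both RT libraries, and all 5 lay more than 50 kb from a gene end, while 0 of the non-persistent regions had such folds. The region at chr2:98666246-98667297, 1035199 bp from the end of the nearest gene Lrrc4c, had folds of 3.01 and 4.91 at 4 h, against 2.60 and 2.05 at RT. It ranked first by −log10 p in both 4 h lists. The region nearest to Alkbh8 was weak by both measures, with folds of 2.16 and 2.37 and −log10 p of 9.11 and 7.07 at 4 h, against folds of 2.35 and 2.41 and −log10 p of 11.9 and 15.7 at RT. Near Esp38, a summit lay within the ribosomal RNA pseudogene Rn18s-rs5 (chr17:39846354-39848202), with folds of 1.73 and 3.65 at 4 h, against 1.44 and 1.35 at RT. Without these 5 regions 275 persistent regions remained, 93 of them in both 4 h lists, and 30.2% were near a gene end. Whether repeated sequence bears on these peaks was not tested.

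At 40 min nearly all persistent regions were called. In the first pair both libraries called 278 of 280 (99.3%), against 480 of 522 non-persistent regions (92.0%) and 94.5% of all room temperature regions. The knockout called 279 in both libraries, where 99.8% of all room temperature regions were called, and the second wild type pair called 278, where 99.6% were. With these long lists, calls in the last 2 groups separate persistent from non-persistent regions hardly at all. Over all lists 277 persistent regions were called in each of the 6 libraries at 40 min, and 96 were called in all 10 libraries.

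Persistent regions were stronger and wider than non-persistent ones in the 6 lists at 40 min that did not enter the choice, as a description over regions with no test. A percentile here is the place of a peak in its own list by −log10 p, where 100 is the strongest. The median percentile was 91.6 and 88.9 for persistent regions in the first pair, against 75.7 and 68.4 for non-persistent ones. In the knockout it was 98.3 in both libraries, against 94.8 and 94.6 for non-persistent regions, and in the second pair 98.6 and 98.8, against 95.5 and 96.0. Of the 100 strongest peaks of each 40 min list, 87 to 92 lay in persistent regions. The same order held within every class of room temperature strength, where persistent regions had the higher median fold in 6 of 6 lists and the greater median width in 6 of 6. In the strongest class their median fold was 1.61 to 1.79 times that of the non-persistent regions, and in the weakest class 1.20 to 1.75 times. The classes did not match strength at room temperature fully, since the strongest spanned mean percentiles of 79.6 to 99.95. The highest RT folds were 194 and 193 among persistent regions and 37.2 and 46.5 among non-persistent ones. Whether strength left within a class bears on these differences was not tested.

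Median peak widths of persistent regions were 633.5 and 758 bp at RT, 956 and 837 bp in the first pair, 366 and 501 bp at 4 h, 1716 and 1684 bp in the knockout and 1693 and 1845 bp in the second pair. Non-persistent regions had medians of 461.5 and 555 bp at RT, 715 and 608 bp in the first pair, 1325 and 1288 bp in the knockout and 1282 and 1409 bp in the second pair. Width followed strength within a list, with a Spearman rho of 0.84 and 0.81 across the 280 regions at RT and 0.56 and 0.71 across 100 and 278 regions at 4 h. These values share a library and its depth, so they describe the lists only. Summits stayed in place, with median shifts of 15 to 28 bp from the summit of the stronger room temperature peak in the 8 libraries at 40 min and 4 h.

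**Figure D4:**
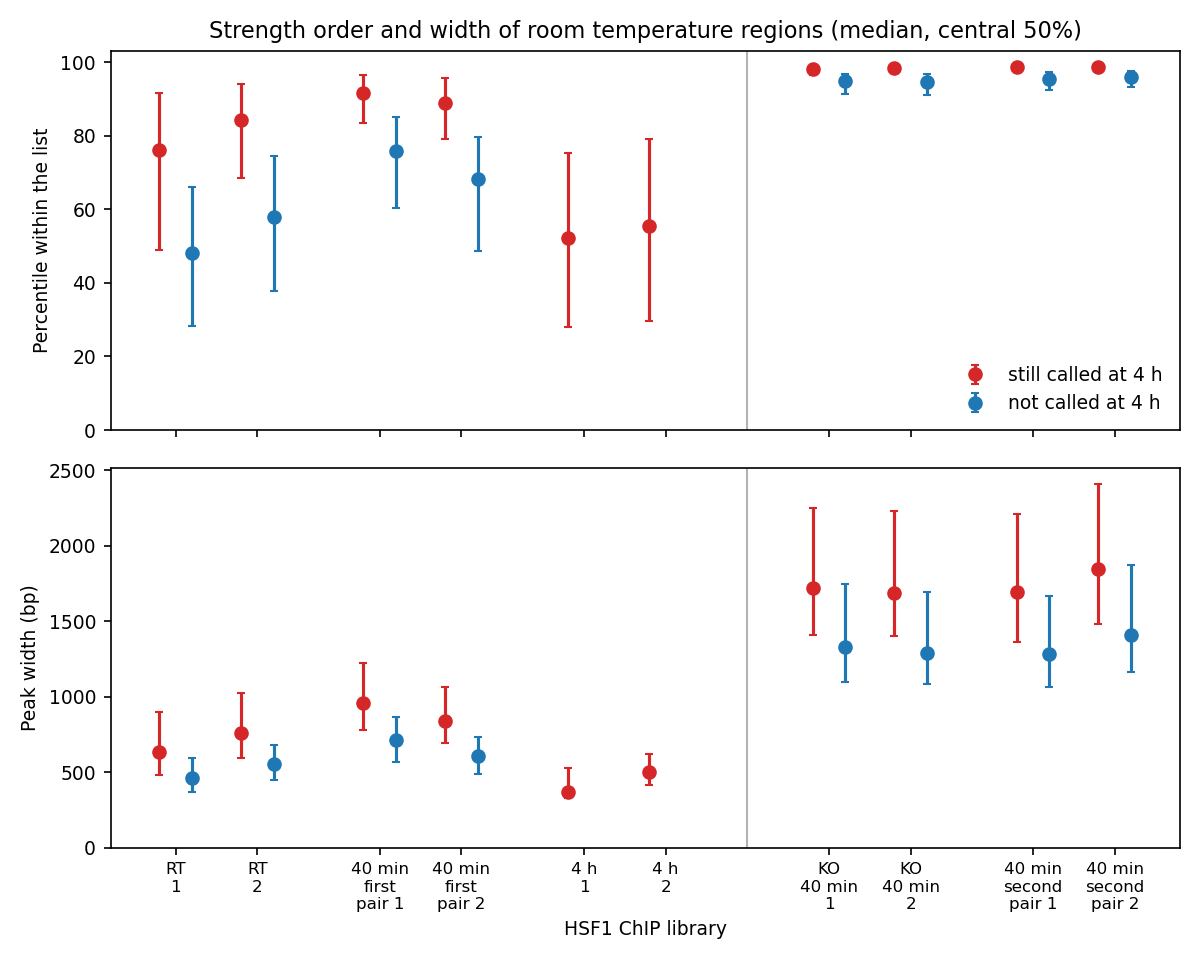
Percentile within the list (top) and peak width in bp (bottom) of room temperature regions in each library, as medians with bars over the central 50% of regions. Regions still called at 4 h are drawn left of regions not called at 4 h, which have no value at 4 h by definition. Regions still called have the higher median in each of the other 8 libraries.

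The order of persistent regions was nearly the same in all lists except those at 4 h. Across the 96 regions called in all 10 lists, Spearman's rho of −log10 p between replicates was 0.98 at RT, 0.98 in the first pair, 0.79 at 4 h, 0.99 in the knockout and 0.99 in the second pair. Between the RT libraries and the 40 min libraries rho was 0.88 to 0.96, and between the RT and 4 h libraries 0.59 to 0.70. The 4 h replicates also matched each other least, so the lower values at 4 h include the spread between those libraries. These 96 regions share their libraries and include neighbours that share peaks, and rho is given as a description.

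The knockout was compared with the second wild type pair over libraries. The median percentile of persistent regions averaged 98.3 ± 0.0471 in the knockout and 98.7 ± 0.114 in the second wild type pair (SD, n = 2 each), a difference of −0.42. A two-sided exact permutation test over libraries gave p = 0.33, the smallest p possible with 2 libraries against 2. The knockout lists were shorter, with 10399 and 10633 peaks against 12644 and 14583, and with lists of equal length the difference was −0.05. Median width averaged 1700 ± 22.6 bp in the knockout and 1769 ± 107 bp in the second pair (exact permutation p = 0.67, n = 2 each). For the percentile both knockout values lay below both values of the second pair, and for width the values overlapped. With the first wild type pair as control the differences were 8.02 in percentile and 803.5 bp in width. The lists of the first pair held only 2287 and 1670 peaks, and lists of equal length were not tried with it. Percentile and width both depend on the list and its depth, so these differences cannot be read as a reversal. Without replicate 2 of the second pair the width difference was 7 bp, so neither direction held in every alternative.

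Folds of single regions were also set side by side in that comparison. Folds were divided by the median fold of the room temperature regions in the same library, and log2 differences of these scaled folds were taken. Of 278 persistent regions 82 had both knockout values below both values of the second pair, beside 24.9% of all room temperature regions, and 64 had both above, beside 26.8%. Their median difference was −0.02. The greatest difference was at chr13:44236208, 433075 bp from the end of the nearest gene Cd83, with folds of 11.0 and 12.8 in the knockout, against 49.1 and 46.2 in the second pair, a scaled log2 difference of −1.72. Against the first 40 min pair, scaled in the same way, 86 of 277 persistent regions had both knockout values below, beside 30.4% of all room temperature regions. Both lay above in 68, beside 23.1%, and the median difference was −0.013.

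Other regions with low values were both distal and near gene ends. The pair of regions nearest to Btg1, which shared a peak, had folds of 52.3 and 47.4 in the knockout, against 105.3 and 99.7 in the second pair (scaled log2 difference −0.76). Gpbp1, with a summit 270 bp from its end, had folds of 126 and 114 in the knockout, against 212 and 214 in the second pair (−0.55). Further regions lay inside Ebf2, with folds of 19.7 and 21.5 in the knockout, against 46.8 and 39.3 in the second pair (scaled log2 difference −0.78), and near Pparg, with 31.9 and 24.3 in the knockout, against 46.8 and 52.3 in the second pair (−0.55). Prkar2b, which encodes a regulatory subunit of protein kinase A, held a region with folds of 20.5 and 20.1 in the knockout, against 40.4 and 35.2 in the second pair (−0.61). On the other side, the region nearest to Tarbp1 had folds of 58.7 and 67.4 in the knockout, against 51.5 and 51.0 in the second pair (0.58). Regions inside Zfp536 (−0.66) and nearest to Fer1l6 (−0.63) had lower values than those of Prkar2b, Gpbp1 and Pparg. The regions described were thus picked after their values were seen and not by order of value alone. No test was made of single regions.

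**Figure D5:**
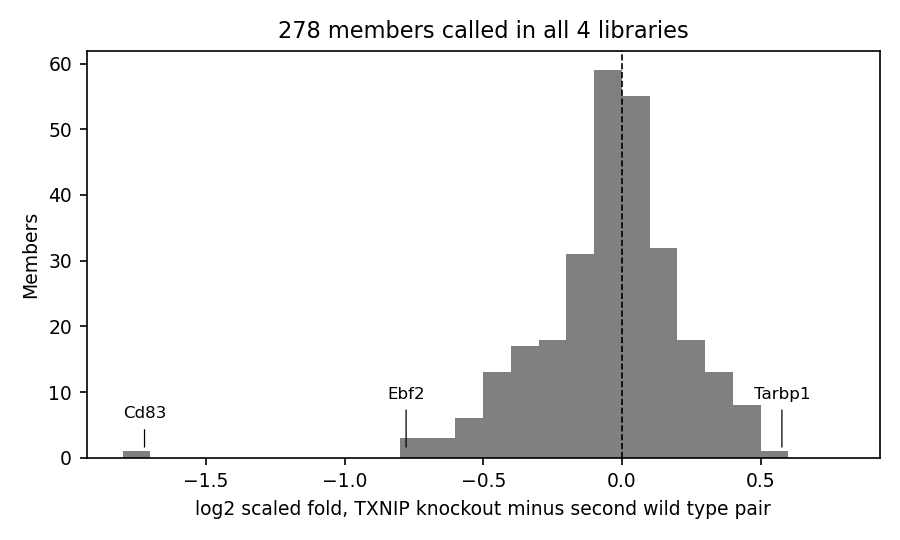
Histogram of the log2 difference in scaled fold, knockout minus second wild type pair, for 278 persistent regions called in all 4 libraries, with the number of regions on the vertical axis. The dashed line marks 0. Most regions lie close to it, and the region nearest to Cd83 lies apart at −1.72.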

How the data were processed

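Fixation, per the labels' protocols, used 2 mM DSG (25 min) and then 0.8% formaldehyde (12 min). Per the submitters' processing notes, reads were handled with BWA 0.7.17, Trim Galore 0.6.0, deepTools 3.4.3, MACS2 2.2.7.1 and SAMtools, and the build was GRCm38.p6. The authors deposited 1 narrow peak list per ChIP library. Each deposited list gives a fold enrichment (a ratio) per peak, −log10 of the p-value and q-value, a summit, and an integer score not used here. Input files were not analysed here, and 1 of 5 inputs has labels that conflict. Depth is unknown.

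Peaks on chromosomes 1 to 19, X and Y were merged as described. Positions are 1-based. Genes came from a RefSeq table without strand, so either gene end counted as near, and all 242 symbols of 16 lists matched. Strength order used −log10 p, except where order or places by fold are named. The strongest peak stood for a region with several. Named regions followed a rule: all persistent regions near ends of listed genes, extremes of strength, order, distance, width and the boundary of the choice. Regions carry the name of the nearest gene, and some that the rule names are not reported here. Members and lists were chosen with earlier results of these data known. No genome was used, so motifs were searched in promoter windows alone. The knockout and second pair were compared over libraries by an exact permutation test, and alternatives in merging, thresholds, order, control pair and libraries were tried. Python 3.11.15, pandas 2.3.3 and scipy 1.17.1 were used, and merging was tested on simulated data.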

Additional observations from a re-analysis of the deposited data

How the results depend on the processing

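The number of persistent regions was 280 or 279 when merging needed an overlap of 0.5 of the shorter peak or when peaks needed a −log10 q of at least 2. It was 98 when both 4 h lists were required, and it ranged from 100 to 318 when a library was left out (100 without 4 h replicate 2, 318 without RT replicate 1). The share near a gene end was 25.4% within 500 bp, 43.9% within 5000 bp and 48.0% for regions of both 4 h lists, and it ranged from 27.0% to 47.0% when a library was left out, the highest without 4 h replicate 2. Calls at 40 min moved by at most 5 regions. The share of promoter windows with a heat shock element was 27.3% with no mismatch.

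With the first wild type pair as control, the knockout difference was 8.02 in median percentile and 803.5 bp in width, both opposite in sign to the values with the second pair. The lists of the first pair were much shorter, and lists of equal length were tried with the second pair alone. The percentile difference ranged from −0.50 to −0.34 and the width difference from −145 to 7 bp when a library was left out, the latter without replicate 2 of the second pair. In a replicate block of same-numbered libraries the values were −0.42 and −69 bp, with exact sign-flip p of 0.5 and 1, where 0.5 is the smallest possible. Labels do not say that numbers pair libraries, and across 278 regions the correlation of same-numbered deviations was 0.10. The median log2 change at 4 h away from gene ends, −0.23, ranged from −0.64 to −0.0046 when a library was left out and was −0.94 in the strongest class. The alternatives without the 5 low-fold regions and within the strongest class, and the promoter-window search, were chosen after seeing the data. The search for elements around all summits was not run, for want of a genome.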
